A study of Rattus norvegicus with 12 samples.

Results

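Ackr4 and Ackr3, the receptor Cx3cr1 and its ligand Cx3cl1, and the chemokines Cxcl12, Ccl2, Ccl7, Cxcl1, Cxcl16 and Ccl19 were followed through 12 RNA-seq libraries of rat atrial fibroblasts. These 10 genes were taken by symbol from the 22850 features of the deposited tables. The cells were primary fibroblasts from the atria of neonatal Sprague-Dawley rats aged 1 to 3 days, separated by differential adhesion and not sorted. All 12 libraries came from cells given angiotensin II (AngII, 1 μmol/L) in medium with 2% FBS for 48 h. In 4 libraries AngII was given alone, in 4 it was preceded by 1 h with HNG (10 μmol/L), a humanin analogue with a serine replaced by glycine, and in 4 by 1 h with MOTS-c (5 μmol/L). With either peptide, this pretreatment was followed by co-treatment with peptide and AngII for the 48 h. Humanin and MOTS-c are short peptides encoded within the ribosomal RNA genes of mitochondrial DNA. No group without AngII was analysed here, so every difference is between cells that all received AngII, and the doses of the peptides differed.

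Chemokines are small secreted proteins that guide the movement of leukocytes through G protein-coupled receptors. CC and CXC chemokines are named for the spacing of their conserved cysteines, and Cx3cl1 (fractalkine) and Cxcl16 are also made as membrane-anchored forms that proteases release. Atypical receptors such as Ackr4 and Ackr3 bind chemokines without classical G protein signalling and take them up for degradation. Ackr4 binds Ccl19, Ccl21 and Ccl25, and Ackr3 binds Cxcl12. Cx3cr1, the receptor of Cx3cl1, is best known from monocytes and tissue macrophages. Ccl2 and Ccl7 attract monocytes through Ccr2, Cxcl1 attracts neutrophils through Cxcr2, and Cxcl12 signals through Cxcr4. Cultured fibroblasts are a known source of Ccl2, Ccl7, Cxcl1 and Cxcl12.

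The libraries held 27960586 to 38322354 counts on genes, so the detection floor of 3 counts lay at 0.0783 to 0.107 CPM, the unit in which a gene's count is put relative to library size. That floor accounts for counting error alone. All 10 fibroblast markers were above 0 in each treatment, with a summed level of 12094 to 13660 FPKM per library, where FPKM is the count per length of the gene and library total. Over all genes AngII+HNG replicate 3 stood apart from its group, with a chi-square per gene of 14.3 to 19.4 against the other 3 libraries, where all other pairs of replicates were at 4.40 to 9.00. Without it the same 5 genes were called between AngII+HNG and AngII and the same 3 between the peptides. The culture was not purely fibroblast by its RNA, since 9 of 9 cardiomyocyte markers summed to 3362 to 4574 FPKM and 16 macrophage markers to 197 to 354 FPKM. Of 8 T and NK cell markers, Cd3d, Cd3e, Nkg7, Klrb1a, Gzmb and Prf1 were at 0 counts in all 12 libraries. The others were not, and the list summed to 0.425 to 2.05 FPKM per library. In these bulk samples, fewer cells of a type and less RNA per cell cannot be told apart. Replicates 2 and 3 of each treatment carried 1 shared number in their library names, and AngII+MOTS-c replicate 1 carried the number 2. The sources used here do not say whether the libraries with 1 shared number are repeats of 1 culture, in which case n would be 3. With their counts summed, 5 genes were called between AngII+HNG and AngII and 1 between the peptides. The study describes the 4 libraries of a treatment as biological replicates and independent samples, without saying whether they came from separate cultures or animals, so the p-values measure the spread between these samples.

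RefSeq promoters are shown for the receptors Ackr4 and Cx3cr1, which moved in opposite directions with HNG, and for Ccl7 and Cxcl1, of which the first was lower with HNG and the second was not called. Each run is the 250 bases before the gene's start in GRCr8, read 5′ to 3′ on the gene's strand, and 9 of 10 genes had an entry, the exception being Ccl2. Capitals mark matches on either strand to TATAAA (the TATA box), the AP-1 motif TGANTCA, the GC box GGGCGG or the NF-kB consensus. Ackr4 lies at chr8:113599763-113600012 on the minus strand, Cx3cr1 at chr8:128677067-128677316 on the minus strand, Ccl7 at chr10:67513845-67514094 on the plus strand and Cxcl1 at chr14:17479322-17479571 on the minus strand.
Ackr4: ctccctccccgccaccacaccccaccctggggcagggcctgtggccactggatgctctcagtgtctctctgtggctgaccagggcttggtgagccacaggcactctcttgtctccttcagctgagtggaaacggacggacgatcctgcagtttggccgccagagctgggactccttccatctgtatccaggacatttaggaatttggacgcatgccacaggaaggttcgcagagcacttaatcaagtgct
Cx3cr1: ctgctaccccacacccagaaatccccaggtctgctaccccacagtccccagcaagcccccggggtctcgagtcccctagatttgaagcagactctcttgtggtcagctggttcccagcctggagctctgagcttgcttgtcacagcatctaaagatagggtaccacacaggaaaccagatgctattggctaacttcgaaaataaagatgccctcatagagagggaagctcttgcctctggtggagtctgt
Ccl7: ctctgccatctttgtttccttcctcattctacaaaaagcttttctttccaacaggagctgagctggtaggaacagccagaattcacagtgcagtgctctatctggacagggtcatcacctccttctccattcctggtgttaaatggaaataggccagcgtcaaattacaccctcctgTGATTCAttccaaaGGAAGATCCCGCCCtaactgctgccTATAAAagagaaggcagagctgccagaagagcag
Cxcl1: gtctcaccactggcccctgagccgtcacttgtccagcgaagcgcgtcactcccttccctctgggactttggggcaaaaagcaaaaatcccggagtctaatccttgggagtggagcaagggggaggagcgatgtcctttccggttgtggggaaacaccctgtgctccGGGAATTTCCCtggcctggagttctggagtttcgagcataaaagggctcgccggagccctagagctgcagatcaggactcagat
The Ccl7 promoter held a TATA box at positions -34 to -29, an AP-1 motif at -73 to -67, and an NF-kB match at -59 to -50 that overlapped a GC box at -51 to -46. The Cxcl1 promoter held 2 overlapping NF-kB matches, at -84 to -75 and -83 to -74. None of the 4 motifs was found in these windows of Ackr4, Cx3cr1, Cxcl16 and Ccl19. Of 33469 RefSeq promoters searched over the same 250 bases, 12.9% held the TATA box, 6.34% the AP-1 motif, 30.5% the GC box and 6.33% the NF-kB consensus. These matches describe letters only, and no binding was measured.

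By FPKM, which allows levels of different genes to be compared, 5 of the 7 chemokines stood above the receptors, and Cxcl1 and Ccl19 did not. Ccl2 was the highest in AngII-treated cells at 63.7 ± 10.7 FPKM (SD, n = 4), and Cxcl12 followed at 29.2 ± 1.68 FPKM. By their means over all 12 libraries Ccl2 was at percentile 93.1 and Cxcl12 at percentile 87.3 of the 18384 genes above 0. Ccl7 at 13.7 ± 1.06 FPKM, Cxcl16 at 13.1 ± 0.745 FPKM and Cx3cl1 at 11.9 ± 0.711 FPKM had overlapping ranges over the AngII libraries, so their order was within the spread. Ackr3 (6.05 ± 0.582 FPKM) was above Ackr4 (3.26 ± 0.10 FPKM) in every AngII library. Cxcl1 (1.23 ± 0.309 FPKM) and Cx3cr1 (1.16 ± 0.191 FPKM) had overlapping ranges at the low end. Ccl19, the ligand that Ackr4 and the lymphocyte receptor Ccr7 share, had at most 8 counts in any library and 0 in 7 of 12, and did not pass the filter on low counts.

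**Figure D1:**
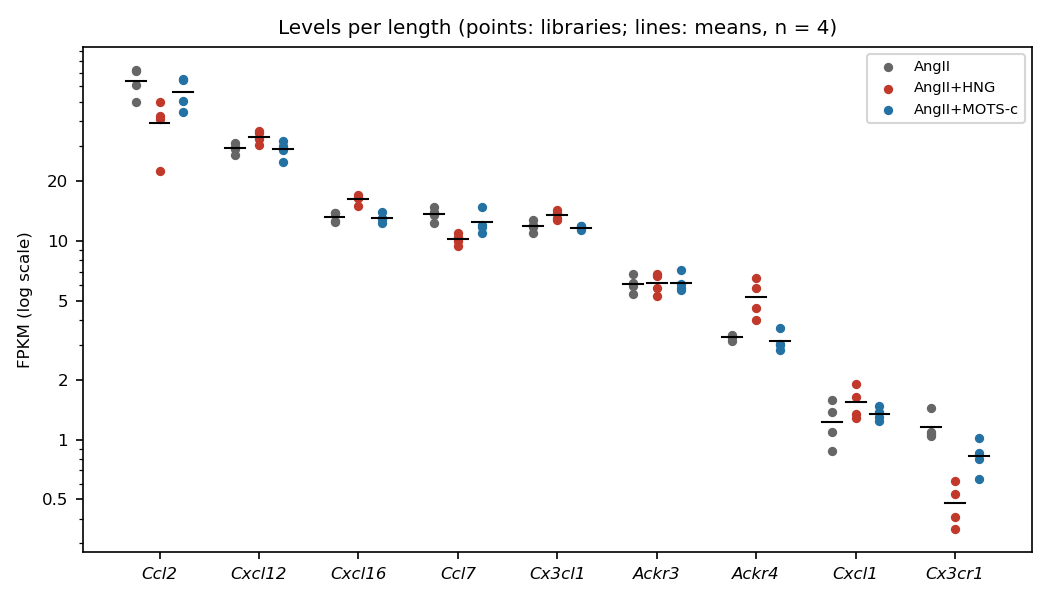
FPKM of 9 genes in each library (points, log axis) with the mean of each treatment (lines, n = 4), in gray for AngII, red for AngII+HNG and blue for AngII+MOTS-c; Ccl19 is not drawn because it was at 0 in 7 of 12 libraries. Ccl2 and Cxcl12 lie highest and Cxcl1 and Cx3cr1 lowest, and the ranges of Ccl2 and Cxcl12 overlap in AngII+HNG only.

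With HNG the order at the top was less distinct. Ccl2 fell to 39.0 ± 11.6 FPKM and ranged from 22.6 to 49.7 FPKM, which overlapped Cxcl12 at 30.4 to 35.9 FPKM. The ratio of Ccl2 to Cxcl12, as FPKM, was 1.71 to 2.67 in AngII, 0.629 to 1.64 in AngII+HNG and 1.40 to 2.58 in AngII+MOTS-c. In AngII+HNG replicate 3 Ccl2 was below Cxcl12, and in the other 11 libraries it was above.

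To ask what HNG changed, AngII+HNG was compared with AngII by the edgeR quasi-likelihood test on counts, with Benjamini-Hochberg adjustment over all 14524 genes tested and a threshold of 0.05. Ackr4 and Cxcl16 rose, and Cx3cr1, Ccl2 and Ccl7 fell. Thus 5 of the 9 genes tested were called, 2 higher and 3 lower, where 5.98% of all genes were called, 3.4% higher and 2.58% lower. The groups did not overlap in CPM for 6 of the 9 genes, the same 5 and Cx3cl1, against 13.6% of all genes. The median log2 fold change was 0.16 over the 9 genes and 0.0043 over all genes tested. The 9 genes were chosen with earlier results of these data known, and the study took Ackr4 and Cx3cr1 from this same comparison. The counts here and in the later comparisons are therefore descriptions and no test of the set.

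**Figure D2:**
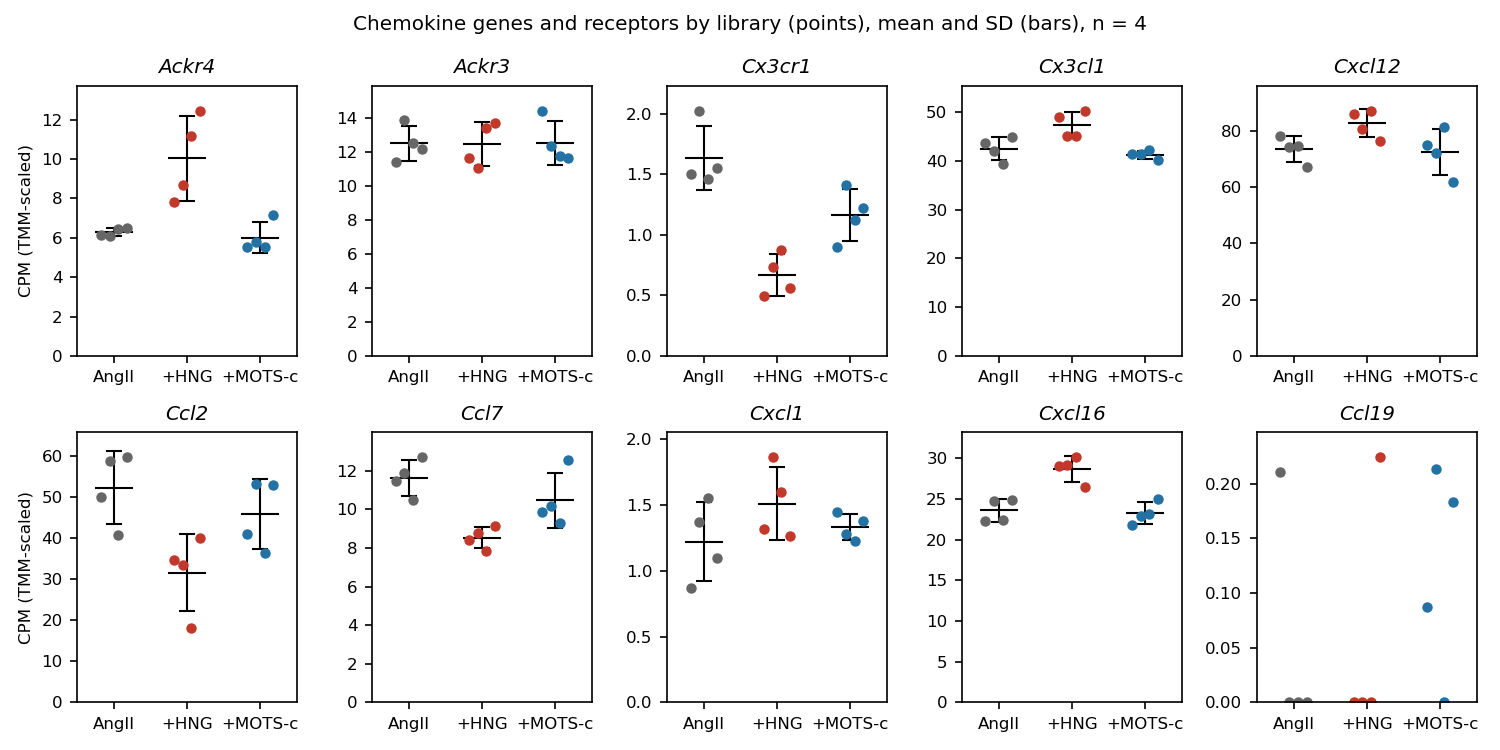
CPM of each gene in each library (points) with the mean and SD of the 4 libraries (bars), one panel per gene with its own axis from 0; no mean is drawn for Ccl19, which was mostly at 0. The AngII+HNG points of Ackr4 and Cxcl16 lie above, and those of Cx3cr1 and Ccl7 below, all points of both other treatments.

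Ackr4, which clears Ccl19, Ccl21 and Ccl25, was at 6.13, 6.08, 6.45 and 6.51 CPM in AngII replicates 1 to 4 and at 7.81, 8.66, 11.2 and 12.5 CPM in AngII+HNG. In AngII+MOTS-c it was at 5.53, 5.79, 5.53 and 7.17 CPM. Every AngII+HNG library was above every other library, and the spread was wider with HNG (SD 2.16 CPM) than with AngII (SD 0.220 CPM). The increase with HNG was 1.60-fold (log2 fold change 0.68 ± 0.13 SE, 95% interval 0.39 to 0.97, edgeR adjusted p = 0.0103, higher in 4 of 4 libraries). It rested on 212 to 244 counts per AngII library and 220 to 444 per AngII+HNG library. The study picked Ackr4 and Cx3cr1 for qPCR from this same comparison, so their directions here are not independent evidence. In RefSeq Ackr4 overlaps Acad11, an acyl-CoA dehydrogenase gene, whose log2 fold change was 0.066 (adjusted p = 0.713) at 3.26 FPKM. Whether strand was used in counting is not given in the sources used here, so reads from the overlap cannot be told apart.

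Cx3cr1, the fractalkine receptor, was at 1.50, 2.03, 1.46 and 1.55 CPM in AngII and at 0.497, 0.735, 0.876 and 0.561 CPM in AngII+HNG. In AngII+MOTS-c it was at 0.898, 1.41, 1.12 and 1.23 CPM. The treatments formed 3 separate ranges, highest in AngII and lowest in AngII+HNG. With HNG the level was 0.414 of that in AngII (log2 fold change -1.27 ± 0.22 SE, 95% interval -1.75 to -0.79, edgeR adjusted p = 0.00519, lower in 4 of 4 libraries). The counts were low, 48 to 71 per AngII library and 14 to 29 per AngII+HNG library, and on the log2(FPKM + 1) scale, which understates changes of low genes, the difference was -0.55. In RefSeq Cx3cr1 overlaps LOC134480114, which was not analysed here.

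Cx3cl1, the ligand of Cx3cr1, was not called. It was at 43.7, 42.1, 39.5 and 45.0 CPM in AngII and at 49.0, 45.1, 45.2 and 50.4 CPM in AngII+HNG, ranges that lay side by side without overlap. The log2 fold change was 0.16 ± 0.056 SE (95% interval 0.038 to 0.28, edgeR adjusted p = 0.126). The ratio of Cx3cl1 to Cx3cr1, as FPKM, was 8.11 to 11.6 in AngII, 21.1 to 39.0 in AngII+HNG and 11.3 to 18.7 in AngII+MOTS-c.

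Ccl2, a monocyte attractant, was at 50.0, 58.9, 40.7 and 59.8 CPM in AngII and at 34.6, 33.4, 18.2 and 40.2 CPM in AngII+HNG. The groups came within 1 CPM of each other, and AngII+HNG replicate 3, the library that stood apart over all genes, was far below the other 3. The level with HNG was 0.605 of that in AngII (log2 fold change -0.72 ± 0.19 SE, edgeR adjusted p = 0.0387), and without replicate 3 the log2 fold change was -0.54 (adjusted p = 0.0151). This call was lost without AngII replicate 1, 2 or 4 or AngII+HNG replicate 1 or 2 (adjusted p = 0.0588 to 0.116), by DESeq2 (adjusted p = 0.0665) and by limma on log2(FPKM + 1) or log2(FPKM + 0.1) (adjusted p = 0.0904 and 0.0851).

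Ccl7, the neighbour of Ccl2 in RefSeq on chromosome 10, was at 11.5, 11.9, 10.5 and 12.7 CPM in AngII and at 8.41, 8.76, 7.85 and 9.12 CPM in AngII+HNG. Its groups were well apart, and the level with HNG was 0.736 of that in AngII (log2 fold change -0.44 ± 0.086 SE, edgeR adjusted p = 0.00914). Across the 12 libraries the Pearson correlation of log2 CPM between Ccl2 and Ccl7 was 0.877, and 0.734 after each treatment's mean was subtracted. These points share library and depth, so the correlation is a description. In both AngII and AngII+HNG, replicate 3 was lowest and replicate 4 highest for both genes.

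Cxcl16, which is also a scavenger receptor for oxidized lipoprotein in its membrane form, was at 22.4, 24.7, 22.4 and 24.9 CPM in AngII and at 29.1, 29.1, 30.2 and 26.5 CPM in AngII+HNG. All AngII+HNG libraries were higher, by 1.22-fold (log2 fold change 0.29 ± 0.061 SE, edgeR adjusted p = 0.0143). The call was lost without AngII replicate 1 (adjusted p = 0.0670) or AngII replicate 3 (adjusted p = 0.0567). In RefSeq it overlaps Zmynd15, which was at 0.620 FPKM with a log2 fold change of 0.30 (adjusted p = 0.381).

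The remaining 3 genes tested were not called. Cxcl12 was at 78.3, 74.5, 74.7 and 67.1 CPM in AngII and at 86.2, 80.9, 87.3 and 76.5 CPM in AngII+HNG, groups that overlapped (log2 fold change 0.17 ± 0.056 SE, edgeR adjusted p = 0.102). Its scavenging receptor Ackr3 lay at 11.4 to 13.9 CPM in AngII and 11.0 to 13.7 CPM in AngII+HNG, with a 95% interval of the log2 difference from -0.20 to 0.20. Cxcl1, at 0.868 to 1.55 CPM in AngII and 1.26 to 1.86 CPM in AngII+HNG, had an interval from -0.15 to 0.79. An increase of Cxcl1 as large as that of Ackr4 therefore lay within its interval, whereas for Ackr3 it did not. The ratio of Ackr3 to Ackr4, as FPKM, was 1.72 to 2.02 in AngII and 1.05 to 1.44 in AngII+HNG.

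**Figure D3:**
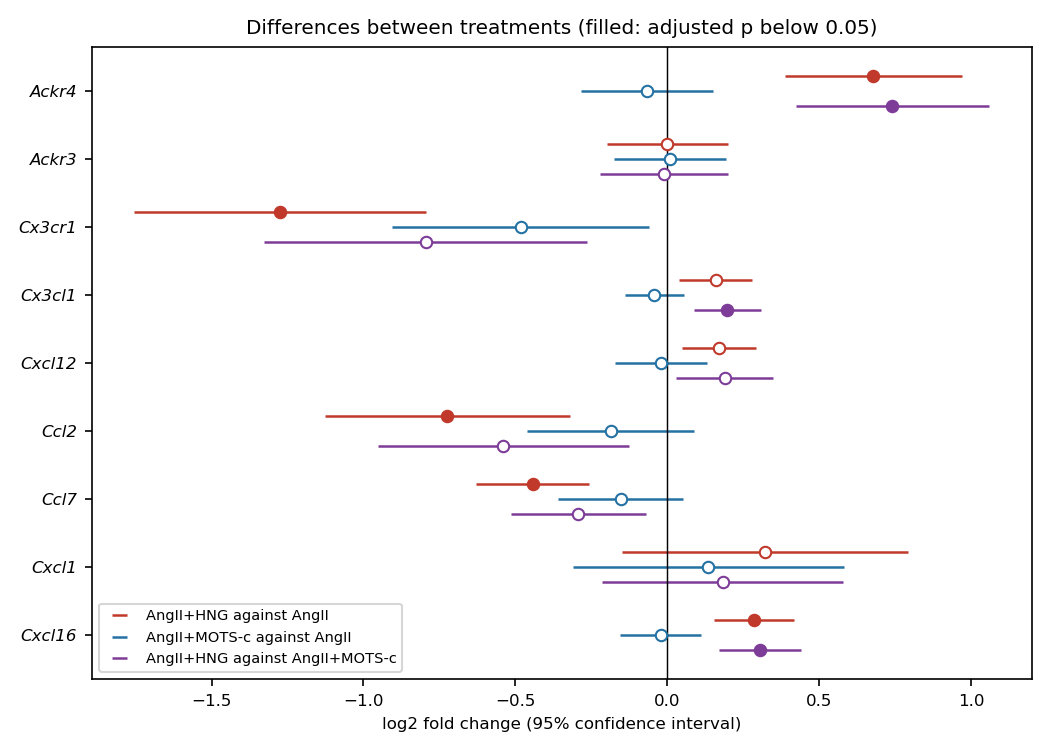
Log2 fold change of 9 genes with its 95% confidence interval, for AngII+HNG against AngII (red), AngII+MOTS-c against AngII (blue) and AngII+HNG against AngII+MOTS-c (purple), with filled points where the edgeR adjusted p was below 0.05. Filled points are 5 in red, 0 in blue and 3 in purple, and the intervals of Ackr3 cross 0 in all 3 comparisons.

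To ask what MOTS-c changed, AngII+MOTS-c was compared with AngII in the same way. Of the 9 genes tested 0 were called by edgeR, where 0.0069% of all 14488 genes tested were called, and 0 by DESeq2 and limma. Only 1 had an unadjusted p below 0.05, a looser threshold at which no share of all genes was counted. That gene was Cx3cr1, at 0.716 of its AngII level (log2 fold change -0.48 ± 0.20 SE, 95% interval -0.90 to -0.060, edgeR adjusted p = 0.924). It was also the 1 gene of the 9 whose groups did not overlap, against 3.5% of all genes. Ccl2 had a log2 fold change of -0.19 and Ccl7 of -0.15, with intervals from -0.46 to 0.090 and from -0.36 to 0.053. Ackr4 had a log2 fold change of -0.065 with an interval from -0.28 to 0.15. Over Cx3cl1, Cxcl12, Cxcl16 and Ackr3 the log2 fold changes lay between -0.042 and 0.0091, and that of Cxcl1 was 0.14. These values share the AngII libraries with the HNG comparison and are given side by side only.

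The peptides were then compared with each other under AngII, at the different doses the study used. Ackr4 was 1.67-fold higher with HNG than with MOTS-c (log2 difference 0.74 ± 0.15 SE, edgeR adjusted p = 0.0125), Cxcl16 1.24-fold (0.31 ± 0.062 SE, adjusted p = 0.0136) and Cx3cl1 1.15-fold (0.20 ± 0.051 SE, adjusted p = 0.0475). Thus 3 of 9 genes were higher and 0 lower, where 4.41% of the 14448 genes tested were called, 2.64% higher and 1.77% lower. The groups did not overlap for 5 of the 9 genes, these 3 and, lower with HNG, Cx3cr1 and Ccl7, against 12.7% of all genes. The log2 difference of Cx3cr1 was -0.79 (95% interval -1.33 to -0.26, adjusted p = 0.0922), that of Ccl2 -0.54 (-0.95 to -0.13, adjusted p = 0.137) and that of Ccl7 -0.29 (-0.51 to -0.071, adjusted p = 0.134). The unadjusted intervals of these 3 genes did not include 0, and Cx3cr1 was called with all 12 libraries in 1 fit (adjusted p = 0.0471). The call of Ackr4 was lost without AngII+MOTS-c replicate 1 (adjusted p = 0.0542) or replicate 2 (adjusted p = 0.0541). Those of Cxcl16 and Cx3cl1 were lost without either of these, without AngII+MOTS-c replicate 3 or without AngII+HNG replicate 2, and that of Cx3cl1 also without AngII+MOTS-c replicate 4 or AngII+HNG replicate 1 or 4 (adjusted p = 0.0502 to 0.123 over these fits). Over all 19 alternatives the call of Ackr4 was lost in 2, that of Cxcl16 in 6 (adjusted p up to 0.0890) and that of Cx3cl1 in 12 (adjusted p up to 0.197), which for Cx3cl1 included both limma fits.

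The libraries numbered 4 stood at 1 end of their treatment for several genes. In each of the 3 treatments replicate 4 had the highest Ackr4, the highest Ccl7 and the lowest Cxcl12. For Cxcl12 it was at 67.1, 76.5 and 61.8 CPM in AngII, AngII+HNG and AngII+MOTS-c, and for Ccl7 at 12.7, 9.12 and 12.5 CPM. The correlation of Cxcl12 with Ccl7 over the 12 libraries was -0.850, and -0.903 with treatment means subtracted. Without the libraries numbered 4, Ackr4, Cx3cr1, Ccl7 and Cxcl16 were still called between AngII+HNG and AngII, and Ccl2 was not (adjusted p = 0.0569).

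Macrophage markers moved with the same treatment. Of 16 markers, 15 were tested and 4 rose with HNG, which were Lyz2 (lysozyme, log2 fold change 0.75, adjusted p = 2.6e-04), Cd68 (0.69, adjusted p = 0.00343), Mrc1 (0.55, adjusted p = 0.00568) and Ptprc (0.37, adjusted p = 0.0257). The call of Ptprc was lost without AngII replicate 1, 2 or 3 or AngII+HNG replicate 4 (adjusted p = 0.0681 to 0.0947). Over all genes 3.4% were called higher. DESeq2 called 6 of the 15 markers and limma 3 or 4, and 10 had an unadjusted edgeR p below 0.05. By edgeR 12 had positive log2 fold changes. None of the 15 was called lower, while the defining markers Adgre1 (-0.36, adjusted p = 0.185) and C1qc (-0.43, adjusted p = 0.255) had negative log2 fold changes. The median over the 15 was 0.29. Their summed level was 198 to 238 FPKM in AngII, 272 to 354 FPKM in AngII+HNG and 197 to 236 FPKM in AngII+MOTS-c. Within AngII+HNG the sum was 272, 274, 329 and 354 FPKM in replicates 1 to 4, the same order as Ackr4, while Cx3cr1 was lower in these libraries than in all others. Between the peptides Lyz2, Cd68, Mrc1, Aif1 and Laptm5 were called higher with HNG by edgeR. The calls of Mrc1, Aif1 and Laptm5 were lost without AngII+MOTS-c replicate 1 or 2, and those of Aif1 and Laptm5 also without replicate 3. That of Aif1 was lost without all libraries numbered 4 too (adjusted p = 0.0518 to 0.0732 over these fits). No macrophage marker was at 0 throughout, and the part of these markers in the results for Ackr4, Cx3cr1, Cx3cl1, Cxcl16, Ccl2 and Ccl7 was not tested.

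**Figure D4:**
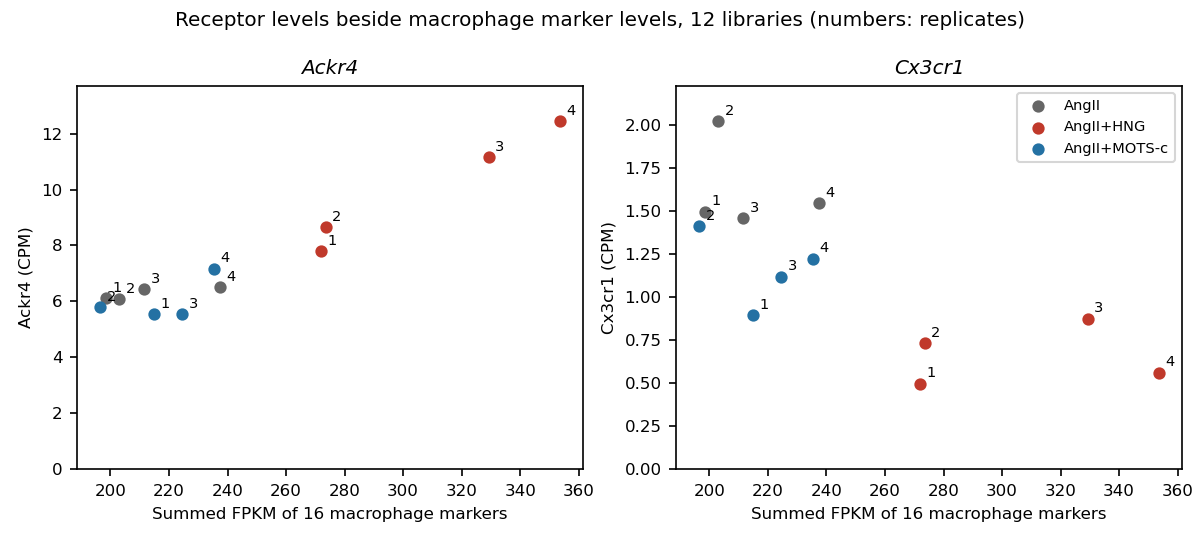
CPM of Ackr4 (left) and Cx3cr1 (right) against the summed FPKM of 16 macrophage markers in each of the 12 libraries, colored by treatment and numbered by replicate. The 4 AngII+HNG libraries, at 272 to 354 FPKM, lie at the right of both panels, highest for Ackr4 and lowest for Cx3cr1.

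Markers of other cell types were counted in the same way, where 3.4% of all genes were called higher with HNG and 2.58% lower. With HNG 4 of 9 endothelial markers rose (Tek, Tie1, Kdr and Egfl7, log2 fold changes 0.39 to 0.43), with a median of 0.39 over the list and summed levels of 19.4 to 22.3 FPKM in AngII and 25.5 to 28.1 FPKM in AngII+HNG. Of 7 smooth muscle and pericyte markers Notch3 (-0.38) and Myh11 (-0.34) fell, and of 10 fibroblast markers Tcf21 (0.28) and Thy1 (0.17) rose. The cardiomyocyte marker Tnni3 (0.43) and the mesothelial marker Upk1b (0.81) rose, the only ones called by edgeR of 9 and 5, while DESeq2 called 2 cardiomyocyte markers. Of the 4 lymphatic endothelial, 4 Schwann and 1 T cell markers tested 0 were called by edgeR, DESeq2 or limma, with 2, 0 and 1 at an unadjusted p below 0.05. The 1 T cell marker tested had a log2 fold change of 0.64 with HNG and a log2 difference of 0.93 between the peptides. The calls of Kdr, Egfl7, Thy1 and Tnni3 were lost without AngII replicate 1 (adjusted p = 0.0589 to 0.0977) and without at least 2 other single libraries (up to 0.109). Without all libraries numbered 4 those of Tie1 (adjusted p = 0.0549), Thy1 (0.0673), Kdr (0.113) and Egfl7 (0.131) were lost. Between the peptides Tek, Tie1, Tcf21, Thy1, Tnni3 and Upk1b were called higher and Notch3 lower with HNG by edgeR. Over all genes 2.64% were called higher and 1.77% lower. The call of Tek was lost without all libraries numbered 4 (adjusted p = 0.0619). The part of these markers in the results for the chemokine genes was not tested.

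The genes whose pattern was most like Ackr4 over the 12 libraries, by Pearson correlation of log2 CPM among 12196 genes, were Tmem178a (0.966), Itgbl1 (0.965), Rgl1 (0.964), Vat1 (0.958) and Scpep1 (0.954). Since Ackr4 itself was higher with HNG, this choice favours genes that were higher there too. Those most like Cx3cr1 were Myl9 (0.942), Cnn1 (0.938), Lmod1 (0.932), Tagln (0.925) and Tpst2 (0.924), of which the first 4 are contractile genes of smooth muscle and myofibroblasts. With treatment means subtracted, 1 of the 5 was shared for Ackr4 (Rgl1) and 0 for Cx3cr1. The macrophage markers Lyz2 (0.941), Itgam (0.890) and Laptm5 (0.887) were the closest of 15 to Ackr4, with a median of 0.832 over the list, while Adgre1 was at -0.452 and C1qc at -0.416. With Cx3cr1 the median was -0.533, from -0.855 for Mrc1 to 0.550 for Adgre1. After treatment means were subtracted the median was 0.624 with Ackr4 and -0.093 with Cx3cr1.

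The wider chemokine system was described with lists of related genes. With HNG 3.4% of all genes tested were called higher and 2.58% lower. No share of all genes was counted at an unadjusted p below 0.05. Of 17 other CC chemokines 6 passed the low-count filter and 0 were called with HNG by edgeR or DESeq2, with 1 at an unadjusted p below 0.05, while limma called 1. The highest were Ccl3 (2.34 FPKM), Ccl12 (1.40 FPKM) and Ccl4 (1.08 FPKM), the last with a log2 fold change of 0.91 (edgeR adjusted p = 0.139), and Ccl1, Ccl5 and Ccl26 were at 0 in all libraries. Of 12 other CXC and XC chemokines 4 were tested and Pf4, a chemokine of platelets and macrophages, rose with HNG, from 17.1 ± 3.58 to 26.6 ± 3.54 FPKM (log2 fold change 0.62 ± 0.14 SE, edgeR adjusted p = 0.0243). This call was lost without AngII replicate 1, 2 or 4 or AngII+HNG replicate 4 (adjusted p = 0.0557 to 0.0768), and without all libraries numbered 4 (adjusted p = 0.108). Next highest were Cxcl13 (0.658 FPKM) and Cxcl10 (0.586 FPKM), and Cxcl2, the neighbour of Cxcl1, was at 0 counts throughout.

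Signalling receptors for these ligands were scarce. Of 17 receptors 4 were tested and 0 were called with HNG by edgeR, DESeq2 or limma, with 0 at an unadjusted p below 0.05. Cxcr4, the signalling receptor of Cxcl12, was at 3.23 FPKM with a log2 fold change of 0.22 (edgeR adjusted p = 0.462), and Ccr1 was at 0.609 FPKM. Ccr2, the receptor of Ccl2 and Ccl7, had at most 3 counts in any library, Cxcr2 of Cxcl1 at most 2, Ccr7 of Ccl19 at most 3 and Cxcr6 of Cxcl16 at most 4. At this depth these receptors were at or near the floor of 3 counts, so no difference was detectable. Among other atypical receptors, Ackr1 (log2 fold change 0.55, adjusted p = 0.143) and Ccrl2 (0.50, adjusted p = 0.263) were tested and not called, and Ackr2 had at most 5 counts.

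Genes that process or present chemokines moved in both directions, where 3.4% of all genes were called higher with HNG and 2.58% lower. Of 12 tested, 2 rose with HNG, the protease Mmp2 (0.30, adjusted p = 0.00161), which trims Cxcl12 and Ccl7, and the glypican Gpc1 (0.22, adjusted p = 0.0217), and 2 fell, the syndecans Sdc2 (-0.32, adjusted p = 0.00563) and Sdc1 (-0.25, adjusted p = 0.00945). Mmp2 (319 FPKM), Mmp14 (279 FPKM, log2 fold change 0.14, adjusted p = 0.267) and Sdc2 (183 FPKM) were the highest. The list's median was 0.065, and the call of Gpc1 was lost without AngII replicate 1, 2 or 3 or AngII+HNG replicate 2 or 4 (adjusted p = 0.0544 to 0.0869) and that of Sdc1 without all libraries numbered 4 (adjusted p = 0.0675). Of 19 genes of receptor signalling and desensitisation Vav1 (0.51, adjusted p = 0.0150) and Pik3cg (0.49, adjusted p = 0.0378), which are mainly genes of blood cells, rose and 0 fell. Both calls were lost without AngII replicate 1 or 3, and that of Pik3cg also without AngII replicate 2 or AngII+HNG replicate 1 or 4 (adjusted p = 0.0520 to 0.114). Without all libraries numbered 4 that of Vav1 was lost (adjusted p = 0.0612). The highest of that list, Gnai2, Rac1 and Gnb1, had log2 fold changes between -0.065 and 0.021, and Ptk2b was higher with HNG than with MOTS-c (0.35, adjusted p = 0.0245).

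NF-kB drives Ccl2, Ccl7 and Cxcl1 in many cells, so its pathway and target genes were counted beside them. Of 19 genes 18 were tested and 0 were called with HNG by edgeR, DESeq2 or limma, with 3 at an unadjusted p below 0.05 and a median log2 fold change of -0.0097. The highest were Csf1 (46.9 FPKM, log2 fold change 0.063), Icam1 (38.2 FPKM, 0.10) and Sod2 (27.0 FPKM, -0.086). With MOTS-c 0 genes were called by edgeR, DESeq2 or limma in all 7 of these lists, with 0 or 1 per list at an unadjusted p below 0.05. Between the peptides Pf4, Mmp2, Gpc1, Vav1 and Ptk2b were higher and Sdc2 was lower with HNG, where 2.64% of all genes were called higher and 1.77% lower. The calls of Gpc1, Vav1 and Ptk2b were lost without AngII+MOTS-c replicate 1, 2 or 3 or AngII+HNG replicate 3 or 4. That of Vav1 was also lost without AngII+MOTS-c replicate 4 or AngII+HNG replicate 1, and that of Gpc1 without AngII+HNG replicate 2 (adjusted p = 0.0532 to 0.152 over these fits). Without all libraries numbered 4 those of Gpc1 (adjusted p = 0.0952), Ptk2b (0.0834) and Vav1 (0.180) were lost. In this comparison 0 of the 18 NF-kB genes were called by any of these tools, with 3 at an unadjusted p below 0.05.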

How the data were processed

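The sequenced material was RNA of primary rat atrial fibroblasts in 12 libraries, 4 per treatment, grouped by the treatment in the sample titles. Doses and age were taken from the study's methods. The authors deposited raw read counts for each gene as whole numbers, together with FPKM values, which scale those counts by the length of the gene and the size of the library. The submitters' processing notes name HISAT2, Picard 1.41 and SAMtools 0.1.18 without their roles. The genome build, the annotation, the counting tool and the use of strand are not given in the sources used here. Reads that genes share could be split in ways that these tables do not show.

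Counts were tested in R 4.3.3 with edgeR 4.0.16 (filterByExpr, TMM, glmQLFit and glmQLFTest), each comparison on its 8 libraries, with Benjamini-Hochberg adjustment over all genes tested and a threshold of 0.05. CPM were scaled by TMM, and log2 CPM used a prior count of 2. FPKM served for levels between genes and CPM for values within a gene, because the gene length implied by counts and FPKM differed between libraries for Ackr4. Alternatives were RLE size factors, other filters, DESeq2 1.42.0, limma 3.58.1 on log2(FPKM + 1) and log2(FPKM + 0.1), 1 fit of all 12 libraries, blocks by replicate or library-name number, and the omission of libraries. The test was also run on simulated counts, and the outcome is not given here. Depth was 27960586 to 38322354 counts per library, which limits Ccl19 and most receptors.

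The members and the gene lists were chosen with earlier results of these data known. The text names all 10 members and, of each pathway list, the called genes and the 3 of highest FPKM, except 1 receptor that is not reported here. It also names the 5 genes most like Ackr4 and Cx3cr1 among those with a symbol and at least 1 CPM, and of the cell type lists the called genes and those at 0. Receptors of the member chemokines, the neighbour Cxcl2, overlapping genes, C1qc, Adgre1 and Itgam were named after their values were seen. Promoters came from RefSeq (GRCr8).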

Additional observations from a re-analysis of the deposited data

Results flagged for a closer look

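In AngII, Cx3cr1 in replicate 2 was at 2.03 CPM, apart from the other 3 libraries at 1.46 to 1.55 CPM. In AngII+MOTS-c, Ackr4 in replicate 4 was at 7.17 CPM, apart from 5.53 to 5.79 CPM in the others. Ccl19 was at 0.210 CPM in AngII replicate 1 and 0.225 CPM in AngII+HNG replicate 4, with 8 counts each, and at 0 counts in the other 3 libraries of both groups. By the criterion used, the gap of the extreme library to its nearest neighbour as a share of the group's range, groups are marked by chance too, so single cases carry little weight.

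The effects of HNG and MOTS-c differed by the direct edgeR test for Ackr4 (log2 difference 0.74), Cx3cl1 (0.20) and Cxcl16 (0.31), with adjusted p-values of 0.0125, 0.0475 and 0.0136. These calls were lost in 2, 12 and 6 of 19 alternatives, and with the counts of replicates 2 and 3 summed that of Ackr4 alone was left. The peptides were given at different doses.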

How the results depend on the processing

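Ackr4, Cx3cr1 and Ccl7 were called between AngII+HNG and AngII under all 19 alternatives at the threshold of 0.05, Cxcl16 under 17 and Ccl2 under 10. For Ccl2 these included the blocks by replicate (edgeR adjusted p = 5.5e-04) and by library-name number (0.0171). The count of 5 genes called became 6 with the replicate block, which added Cxcl12 (adjusted p = 0.0246), 7 with a block by library-name number, which added Cxcl12 (0.0228) and Cx3cl1 (0.0482), 4 with DESeq2 and 2 (Cx3cr1 and Ccl7) at an adjusted p below 0.01, and ranged from 3 to 5 when single libraries were left out, with 3 without AngII replicate 1. Over all genes, 869 were called, against 332 at an adjusted p below 0.01, 541 without the libraries numbered 4, 577 with replicates 2 and 3 summed, 1205 by DESeq2, 1111 with the replicate block, 1113 with the library-name block, 1035 with all 12 libraries in 1 fit, and 431 to 932 when single libraries were left out. The log2 fold change of Cx3cr1 was -0.55 by limma on log2(FPKM + 1), which understates changes of low genes.

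Between AngII+HNG and AngII+MOTS-c the count of 3 became 5 with the replicate block, which added Ccl2 (adjusted p = 0.00368) and Cxcl12 (0.0203), 1 with the block by library-name number, 1 with the counts of replicates 2 and 3 summed and 0 at an adjusted p below 0.01, and ranged from 0 to 3 when single libraries were left out. Over all genes the 637 calls became 1054 with the replicate block, 975 with all 12 libraries in 1 fit and 1042 by DESeq2, and fell to 237 at an adjusted p below 0.01. Between AngII+MOTS-c and AngII 0 of the 9 genes were called under any alternative run. Libraries that share a number across treatments correlated, after group means were subtracted, at -0.0755 to 0.212 over the 3 comparisons. The pairs numbered 4 were above 0.1 in all 3 (0.119 to 0.212) but not every pair was, so the numbers were not taken to pair the samples. The causes of these shifts were not tested, beyond the smaller number of libraries where some were left out.

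Signs turned only for differences near 0 that were never called. For Ackr3 between AngII+HNG and AngII the log2 value was -0.0038 with RLE size factors, -0.0013 without a filter, -0.0023 with 12 libraries, -0.0032 with the replicate block, -0.0014 with the library-name block, -0.062 without the libraries numbered 4, -0.0036 by DESeq2 and -0.049 to 0.056 with single libraries left out. Between AngII+MOTS-c and AngII it was -0.11 with the library-name block and -0.066 to 0.063 with single libraries left out, and between the peptides 0.091 with the library-name block and -0.058 to 0.057 with single libraries left out. For Cxcl12 between AngII+MOTS-c and AngII it was 0.0064 without the libraries numbered 4 and -0.079 to 0.049 with single libraries left out, for Cxcl1 -0.036 with the library-name block, and for Cxcl16 -0.059 to 0.0082 with single libraries left out.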
